A study of Homo sapiens with 6 samples.

Results

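BST2 and BISPR are neighbouring genes of human chromosome 19 that are transcribed away from each other from closely spaced starts. BST2 encodes tetherin, a protein of the cell surface, and BISPR is a long non-coding RNA gene. Both rows were found by matching Ensembl identifiers, without their version, to GENCODE 29, and they are 2 of the 18677 rows of the count table. The pair was picked because both genes were higher in SETDB1-knockout cells without a general rise of interferon-stimulated genes, so their levels and fold changes are given as a description, with no test. The neighbouring genes, the promoter sequence and the spread among the knockout libraries were not part of that choice as stated.

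The cells were H1299, an established human line of non-small cell lung cancer. Of 6 RNA-seq libraries, 3 came from cells carrying the guide RNA hSETDB1 sg1 and 3 from cells carrying Control sg2, and both lines were grown with puromycin. SETDB1 is a histone methyltransferase that deposits the silencing mark H3K9me3. Each group rests on 1 guide, and nothing in the labels says that the replicates were separate cultures, so p-values measure the spread between these samples, which may be technical. The libraries held 29532057 to 34320279 counts in SETDB1-knockout cells and 30729681 to 35941288 counts in control cells. The unit of level is CPM (read counts scaled to a common library size with TMM factors), with the SD over 3 libraries.

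SETDB1 mRNA itself was at 38.6 ± 2.31 CPM in SETDB1-knockout cells and 43.5 ± 1.76 CPM in control cells (log2 fold change -0.17 ± 0.06 SE, edgeR quasi-likelihood adjusted p = 0.0151), so its level gives only a partial check of the labels. That call was lost without SETDB1-knockout replicate 2 (edgeR adjusted p = 0.0896) and with library size alone (edgeR adjusted p = 0.0605). Of the carcinoma cell markers, the keratin genes were expressed but lower in SETDB1-knockout cells, KRT8 at 157 ± 0.703 CPM against 367 ± 9.58 CPM in control cells (edgeR adjusted p = 1.02e-13) and KRT18 at 332 ± 6.43 CPM against 599 ± 30.7 CPM in control cells (edgeR adjusted p = 6.53e-11). VIM was at 2216 ± 58.5 CPM in SETDB1-knockout cells and 2430.2 ± 61.3 CPM in control cells (edgeR adjusted p = 0.0441), and NRAS, not called, was at 119 ± 16.6 CPM in SETDB1-knockout cells and 113 ± 10.01 CPM in control cells. Plasmacytoid dendritic cells are known for high tetherin. Of 5 plasmacytoid dendritic cell markers 1 had a row, TCF4, whose level ranged from 19.7 to 20.4 CPM in SETDB1-knockout cells and from 26.4 to 27.6 CPM in control cells. Leukocyte markers summed to 0.433 to 0.556 CPM in SETDB1-knockout cells and 0.189 to 0.400 CPM in control cells, with 1 of 4 having a row. Fibroblast markers, 2 of 3 with a row, summed to 1.07 to 1.24 CPM in SETDB1-knockout cells and 1.27 to 1.36 CPM in control cells, and of 2 endothelial markers 0 had a row. The part of other cells in the BST2 result was not tested.

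Tetherin is anchored in the membrane at both ends, by a transmembrane segment and by a lipid (GPI) anchor, and holds budding enveloped viruses on the surface of the cell that made them. Its gene is a textbook interferon-stimulated gene. Interferon acts through the receptor chains IFNAR1 and IFNAR2, the kinases JAK1 and TYK2 and the factor ISGF3, which includes STAT2 and IRF9 and binds interferon-stimulated response elements (ISRE) in promoters. BISPR was named in human cells as an interferon-stimulated RNA that acts as a positive regulator of BST2.

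The region upstream of BST2 is shown because both genes, and some transcripts of MVB12A, start in it. The 250 bases before the RefSeq start of BST2, GRCh38.p14 chr19:17405631-17405880, are given on the minus strand, the strand of BST2, with the matches to the ISRE core (GAAA, any 2 bases, GAAA) in capitals.
BST2 upstream: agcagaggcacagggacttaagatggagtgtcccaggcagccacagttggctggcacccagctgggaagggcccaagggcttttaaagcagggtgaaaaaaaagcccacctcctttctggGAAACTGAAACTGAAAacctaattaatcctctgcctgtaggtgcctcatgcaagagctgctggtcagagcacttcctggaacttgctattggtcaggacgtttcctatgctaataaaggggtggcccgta

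The 2 matches overlap and form 1 run of repeats, which lies 115 to 130 bases upstream of the BST2 start. RefSeq places the BISPR start 55 bases beyond that of BST2 on the other strand, so the same element lies 59 to 74 bases inside BISPR as annotated by RefSeq. GENCODE 29 lists 18 BISPR transcripts that start between positions 17405686 and 17406115, of which 9 start beyond the element and have it upstream. On either strand, the ISRE core was found in 3.57% of 35116 RefSeq promoter windows (250 bases before to 50 after a start), the BST2 window among them. The BISPR window of that length ends at position 17405735, before the element.

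The BST2 window also held 2 matches to the STAT element TTCNNNGAA (found in 7.66% of windows), 1 of which overlaps the first ISRE match. It held CCAAT once on the opposite strand (34.6% of windows) and 1 match to the NF-kB consensus (11.3% of windows). TATAAA (11.5% of windows), GGGCGG (45.0% of windows) and TGANTCA (7.71% of windows) had no match in it on either strand. CpG dinucleotides were sparse in both windows, with 2 in the BST2 window and 6 in the BISPR window, against a median of 14 over all windows.

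**Figure D1:**
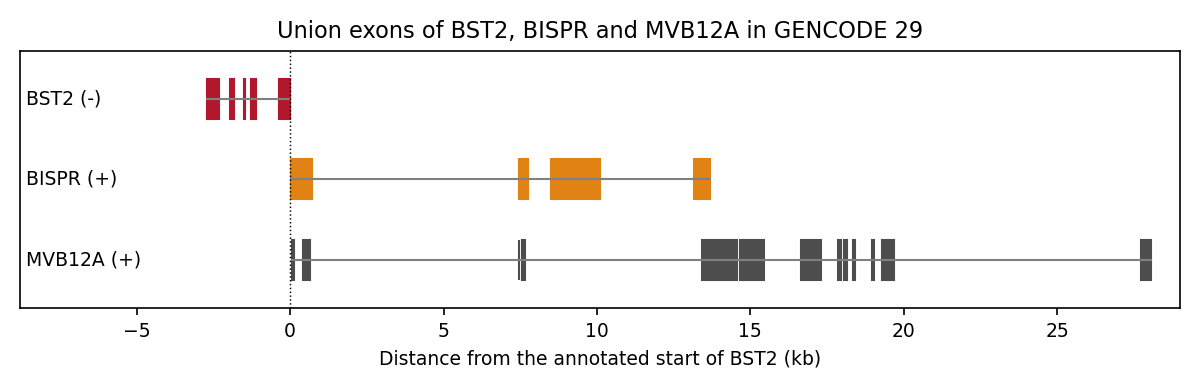
Exons of BST2, BISPR and MVB12A, merged over all GENCODE 29 transcripts of each gene, against distance from the annotated start of BST2 in kb (dotted line), with the strand after each name. BST2 runs to the left of the line, and BISPR and the first exons of MVB12A run to the right from within 0.074 kb of it.

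BST2 (ENSG00000130303, GRCh38 chromosome 19, 17402939 to 17405648, minus strand, protein-coding) had 698, 790 and 752 counts in the SETDB1-knockout libraries and 1 count in each of the control-knockout libraries. The knockout libraries were close together and far above the controls. In CPM these were 23.3, 22.8 and 22.0 in SETDB1-knockout cells, against 0.0334, 0.0315 and 0.0282 in control cells. The ratio of the group totals, 2240 counts in SETDB1-knockout cells over 3 in control cells, was 734 (exact 95% counting interval 251 to 3561, for counting error only). The control total allows a level between 0.00637 and 0.0903 CPM. These are bulk samples, in which a few cells with much BST2 RNA and many cells with little cannot be told apart.

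BISPR (ENSG00000282851, GRCh38 chromosome 19, 17405686 to 17419324, plus strand, lincRNA) was the scarcer of the pair. Its counts were 33, 48 and 34 in the SETDB1-knockout libraries and 2, 0 and 2 in the control-knockout libraries. The groups did not overlap, and the second knockout library was the highest. The levels were 1.16 ± 0.203 CPM in SETDB1-knockout cells and 0.0411 ± 0.0359 CPM in control cells (n = 3 each). The ratio of the group totals, 115 counts in SETDB1-knockout cells over 4 in control cells, was 28.3 (exact 95% counting interval 10.7 to 105). The fitted log2 fold changes were 9.35 ± 0.18 for BST2 and 4.70 ± 0.44 for BISPR (SE, SETDB1 knockout over control). With control totals of 3 and 4 counts these SEs are too small, and the wider counting intervals are the better guide to the error. All knockout libraries stood above all control libraries for 33.5% of the 17675 genes tested, and the pair was chosen by this contrast.

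**Figure D2:**
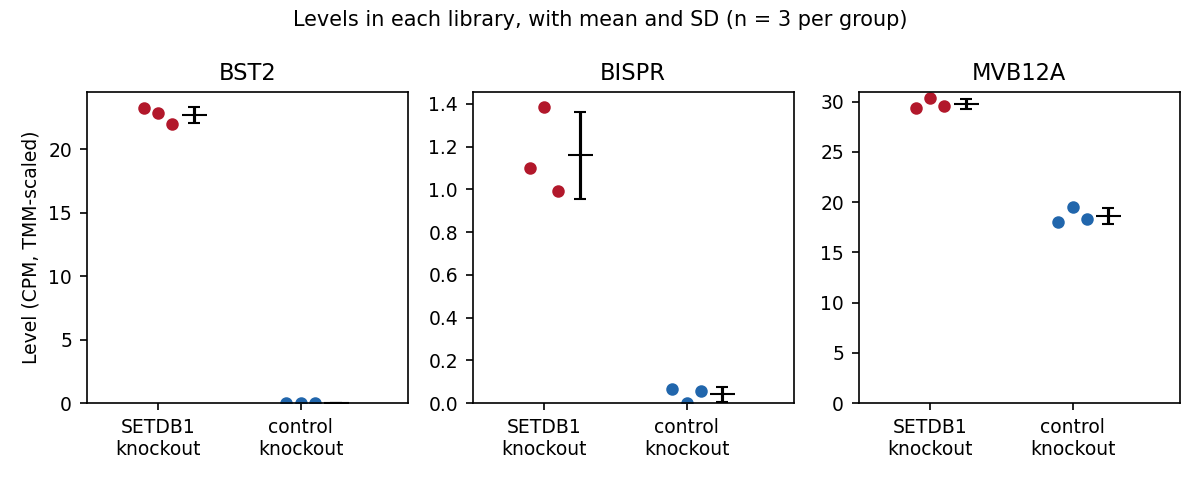
Level in CPM of BST2, BISPR and the overlapping gene MVB12A in each library (points), with the mean and SD of 3 libraries (bar) for the SETDB1 knockout and the control knockout; the vertical scales differ and start at 0. BST2 stood at 22.0 to 23.3 CPM in SETDB1-knockout cells and near 0 in control cells, while MVB12A stood at 29.4 to 30.3 CPM in SETDB1-knockout cells and 18.1 to 19.6 CPM in control cells.

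The knockout libraries differed little from one another. The coefficient of variation of the CPM values was 2.81% for BST2 and 17.5% for BISPR, beside 3.66% and 16.2% expected from counting alone at their mean counts. BISPR made up 4.51% of the reads of the pair in SETDB1-knockout replicate 1 (Wilson 95% interval 3.23 to 6.27%), 5.73% in replicate 2 (4.35 to 7.51%) and 4.33% in replicate 3 (3.11 to 5.98%). The intervals of the 3 libraries overlap. In the control knockout the pair had 7 reads in all, too few for a share to be read.

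Levels of different genes can be compared only per length of exon. BST2 has 1119 bases of merged exons and stood at 20.3 CPM per kb in SETDB1-knockout cells, above 86.4% of the genes tested. BISPR has 3045 such bases and stood at 0.381 CPM per kb, above 14.2% of them. On that scale BST2 was 53.2 times as high as BISPR, and in plain counts 19.5 times. In the control knockout BST2 was at 0.0277 CPM per kb and BISPR at 0.0135 CPM per kb, where single reads decide the values. The BISPR row carries an older version of the identifier than GENCODE 29, so its exon length at counting may have been different. Of the 3045 bases, 2438 are not exon of MVB12A. How reads on shared bases were counted is not known, so the level per kb of BISPR and the 53.2 are uncertain.

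All but the first bases of the BISPR span (13603 bases of it) overlap MVB12A, a gene of the same strand that encodes a subunit of the ESCRT-I complex, part of the machinery that sorts membrane proteins for degradation and cuts budding membranes. Of the merged exon bases of BISPR, 607 (19.9%) are also exon of MVB12A. A further 237 are exon of the antisense gene AC010319.4 and 20 of AC010319.3. Of 14 MVB12A transcripts, 4 start within 1000 bases of the BST2 start, the nearest with 73 bases between, and the other transcripts start from position 17419081 on.

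MVB12A had 881, 1050 and 1011 counts in SETDB1-knockout cells and 541, 620 and 650 counts in control cells. Its groups did not overlap, at 29.8 ± 0.511 CPM in SETDB1-knockout cells and 18.7 ± 0.793 CPM in control cells (1.60-fold higher, log2 fold change 0.67 ± 0.06 SE, edgeR adjusted p = 8.79e-09). BISPR had 4 counts over the control libraries, and MVB12A had 541 or more in each of them. Whether MVB12A reads were counted as BISPR in either group was not tested. Which MVB12A start its added reads came from cannot be told from counts per gene.

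Most genes around the pair were moderately higher in SETDB1-knockout cells. Of the 10 tested genes on each side, 14 were higher and 1 was lower at an edgeR adjusted p under 0.05, with a median log2 fold change of 0.41. Over all 17675 genes tested, 63.5% were called, 31.9% higher and 31.6% lower, and the median was 0.01. Chromosome 19 as a whole had 50.4% of its 1274 tested genes higher and 26.1% lower, with a median of 0.24. Starts within 100 kb of that of BST2 belonged to 6 other tested genes, all of them higher, with log2 fold changes from 0.23 to 1.04. Within 1000 kb, 22 of 53 genes were higher and 10 lower, with a median of 0.14.

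On the low-coordinate side, in the order of their low coordinates, the first genes were GTPBP3, ANO8, DDA1 and AC010463.3. GTPBP3, which encodes an enzyme that modifies mitochondrial tRNAs, was at 45.1 ± 1.53 CPM in SETDB1-knockout cells and 35.3 ± 1.71 CPM in control cells (edgeR adjusted p = 2.09e-05). ANO8, of the anoctamin family of membrane proteins, was at 12.2 ± 0.957 CPM in SETDB1-knockout cells and 6.42 ± 1.04 CPM in control cells (edgeR adjusted p = 1.54e-07). DDA1, a component of DDB1-type ubiquitin ligases, rose by less, to 39.3 ± 0.623 CPM in SETDB1-knockout cells against 33.5 ± 1.13 CPM in control cells (edgeR adjusted p = 0.00123). AC010463.3, a sense-intronic RNA, had 10 to 13 counts per library in SETDB1-knockout cells and 4 to 7 in control cells (edgeR adjusted p = 0.0320). Its call was lost whichever library was left out (edgeR adjusted p from 0.0535 to 0.128) and in DESeq2 (adjusted p = 0.149). ABHD8 comes later in that order, but its own start is nearer to the BST2 start than those of DDA1 and AC010463.3. It was at 13.2 ± 0.678 CPM in SETDB1-knockout cells and 6.67 ± 0.212 CPM in control cells (1.99-fold higher, edgeR adjusted p = 1.71e-09).

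On the other side, beyond MVB12A, came SLC27A1, AC010618.3 and PGLS. SLC27A1, which encodes a fatty acid transport protein, was at 17.8 ± 0.772 CPM in SETDB1-knockout cells and 8.72 ± 0.709 CPM in control cells (log2 fold change 1.04 ± 0.08 SE, edgeR adjusted p = 5.31e-10). PGLS, an enzyme gene of the pentose phosphate pathway, was at 26.3 ± 0.880 CPM in SETDB1-knockout cells and 27.2 ± 0.264 CPM in control cells, and its groups overlapped (edgeR adjusted p = 0.485). AC010618.3, a lincRNA, was at 1.85 ± 0.261 CPM in SETDB1-knockout cells and 1.45 ± 0.174 CPM in control cells and was not called (edgeR adjusted p = 0.0853), although it was called higher without SETDB1-knockout replicate 3 (edgeR adjusted p = 0.0496).

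The steepest changes among the 20 flanking genes were farther off, with genes of smaller change between them and BST2. UNC13A, a synaptic vesicle priming gene that starts 283 kb away, was at 8.53 CPM in SETDB1-knockout cells and 0.373 CPM in control cells (edgeR adjusted p = 7.20e-14). FCHO1, an endocytosis gene at 342 kb, was at 38.7 CPM in SETDB1-knockout cells and 3.61 CPM in control cells (edgeR adjusted p = 2.76e-17). ANKLE1, which encodes a nuclease, starts 124 kb to the other side and was at 18.0 CPM in SETDB1-knockout cells and 2.51 CPM in control cells (edgeR adjusted p = 1.20e-14). B3GNT3, a glycosyltransferase gene, was the only flanking gene called lower, at 1.84 CPM in SETDB1-knockout cells and 4.56 CPM in control cells (edgeR adjusted p = 5.00e-08). These 4 genes were chosen after their values were seen.

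**Figure D3:**
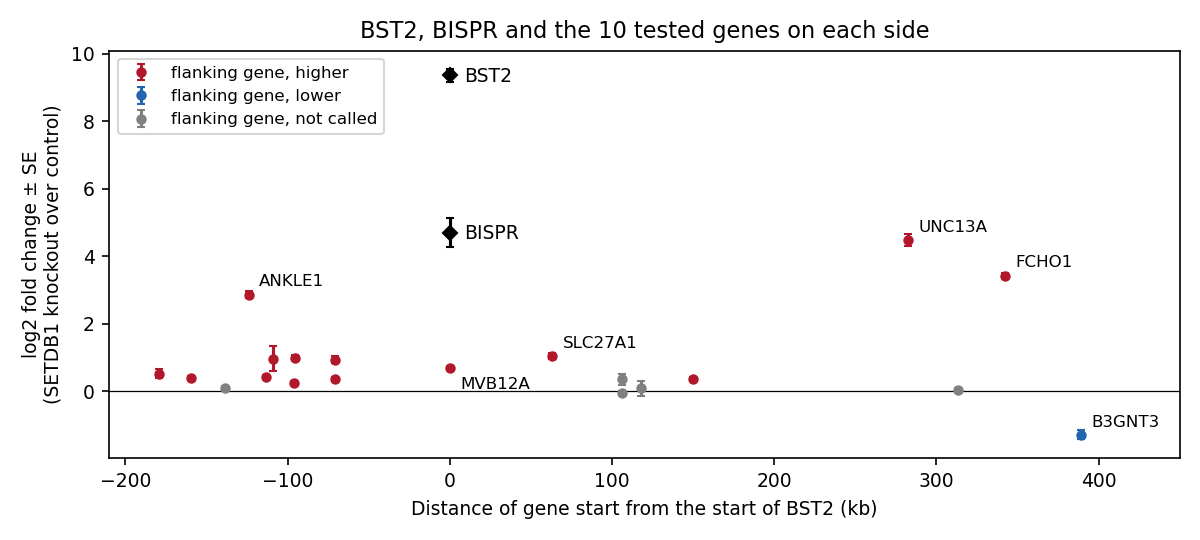
Log2 fold change with SE (SETDB1 knockout over control) of BST2, BISPR (black) and the 10 tested genes on each side (coloured by edgeR call), against the distance of each gene's start from that of BST2 in kb. BST2 at 9.35 and BISPR at 4.70, both picked for their rise, stand above genes that lie mostly between 0 and 1. UNC13A, FCHO1, ANKLE1 and SLC27A1 are higher than that and B3GNT3 lower. The SEs of BST2 and BISPR are smaller than their counting error, given the few control counts.

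Listed interferon signalling genes were on balance not higher. The list spans several interferon types and includes inhibitors, among them SOCS3, USP18 and PIAS1, so its counts do not measure the route to BST2 alone. Of 22 tested interferon signalling genes 3 (13.6%) were higher and 12 (54.5%) lower, beside the 31.9% and 31.6% of all genes, with a median log2 fold change of -0.17. The share called in either direction was near the 63.5% of all genes. The absence of an interferon response was part of how the pair was chosen, so these counts and those of the interferon-stimulated genes describe that choice. The receptor chain IFNAR1 fell to 90.3 ± 4.44 CPM in SETDB1-knockout cells, against 115 ± 6.41 CPM in control cells (edgeR adjusted p = 1.72e-05). The kinase gene JAK1 fell to 90.2 ± 1.67 CPM in SETDB1-knockout cells, against 143 ± 6.67 CPM in control cells (edgeR adjusted p = 1.32e-09). The 3 higher genes, named after their values were seen, were IRF3, a transcription factor gene of the first antiviral response (2.12-fold), the interferon-gamma receptor gene IFNGR2 (1.38-fold) and SOCS3, which encodes a feedback inhibitor (1.20-fold).

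Of the further signalling genes given here, IRF1 alone was called. IFNAR2 was at 27.6 ± 1.26 CPM in SETDB1-knockout cells and 28.0 ± 2.53 CPM in control cells, and the kinase gene TYK2 was at 121 ± 5.78 CPM in SETDB1-knockout cells and 113 ± 3.99 CPM in control cells. STAT2 was at 35.2 ± 3.27 CPM in SETDB1-knockout cells and 37.0 ± 0.0844 CPM in control cells. IRF9 was scarce, at 1.44 ± 0.349 CPM in SETDB1-knockout cells and 1.49 ± 0.0597 CPM in control cells. The libraries of both groups overlapped for each of these genes, with edgeR adjusted p from 0.125 to 0.814. TYK2 was called higher with library size alone (edgeR adjusted p = 0.0331). IRF1, an interferon-induced transcription factor gene, was at 10.7 ± 0.693 CPM in SETDB1-knockout cells and 12.1 ± 0.218 CPM in control cells (edgeR adjusted p = 0.0449), a call that DESeq2 did not make (adjusted p = 0.114) and that was lost with library size alone (edgeR adjusted p = 0.127). The IRF1 call was lost as well when any library but SETDB1-knockout replicate 1 was left out (edgeR adjusted p from 0.0571 to 0.157), and STAT2 was called lower without that replicate (edgeR adjusted p = 0.0351).

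Among 38 tested interferon-stimulated genes other than BST2, 8 (21.1%) were higher and 18 (47.4%) lower, beside the 31.9% and 31.6% of all genes, with a median log2 fold change of -0.18. Here too the share called in either direction was near the 63.5% of all genes. Of 48 listed genes 39 had a row, and every row had a library with at least 11 counts. Listed genes without a row are not in these counts, and their levels are not known. CMPK2, a listed gene that the filter on low counts left out, had 14, 12 and 10 counts in SETDB1-knockout cells and 0 in each control-knockout library. Fitted without the filter it had a log2 fold change of 6.59, a value that depends on the prior count. The 3 largest rises were all of IFITM genes, whose proteins block the entry of viruses: IFITM2, IFITM1 and IFITM3, with log2 fold changes of 1.22 ± 0.07, 0.85 ± 0.12 and 0.72 ± 0.05 (SE). These genes resemble each other and reads can be shared, so their separate values are uncertain. The 3 largest falls were of MX1, IFIT3 and SP100. MX1, which encodes an antiviral GTPase, had 4, 1 and 1 counts in SETDB1-knockout cells and 11, 11 and 13 counts in control cells. IFIT3, which binds foreign RNA with its relatives, fell to 1.63 ± 0.229 CPM in SETDB1-knockout cells, against 5.70 ± 0.570 CPM in control cells (edgeR adjusted p = 4.91e-10). SP100, a nuclear body gene, fell to 10.4 ± 0.359 CPM in SETDB1-knockout cells, against 30.05 ± 1.54 CPM in control cells (edgeR adjusted p = 2.02e-13).

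**Figure D4:**
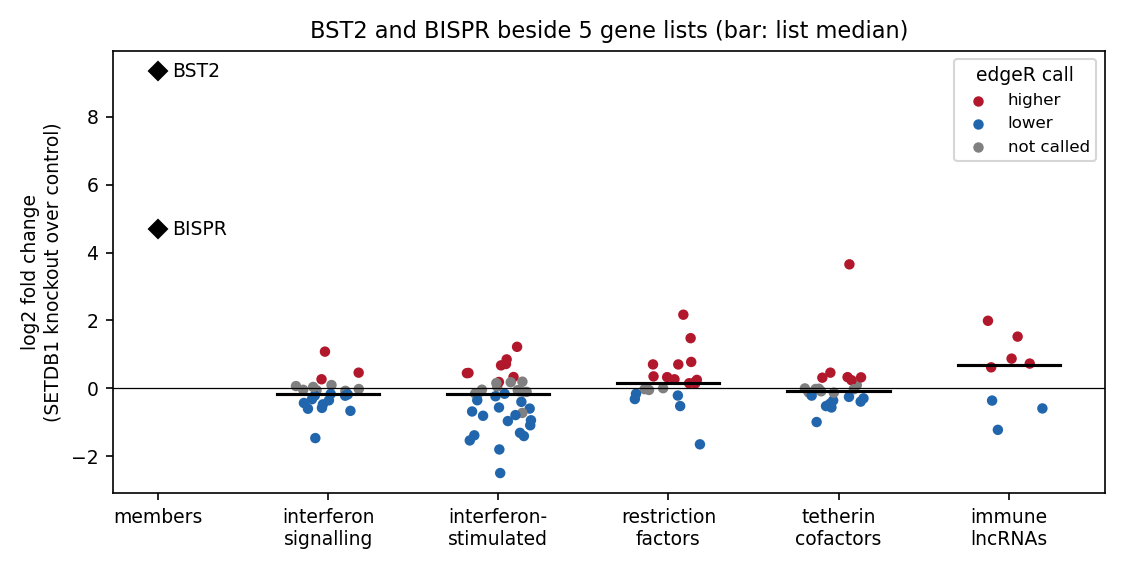
Log2 fold change (SETDB1 knockout over control) of BST2 and BISPR (black diamonds) beside the tested members of 5 gene lists, coloured by edgeR call, with each list's median as a bar. No listed gene that passed the filter on low counts reaches the 4.70 of BISPR, which was picked for its rise. The medians run from -0.18 for interferon-stimulated genes to 0.67 for immune lncRNAs.

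The element in the BST2 promoter was also looked for in the promoters of the listed interferon-stimulated genes. Of 33 with a RefSeq window, 25 held the ISRE core on either strand. Of these 25 genes 5 were higher and 14 lower, with a median log2 fold change of -0.23, and of 7 tested genes without the element 1 was higher and 3 lower, with a median of -0.20. Over all genes tested 31.9% were higher and 31.6% lower. The 5 higher genes with the element were IFI44, IFITM1, IFITM3, ISG20 and PARP12. ISG20 lost its call in DESeq2 (adjusted p = 0.0672) and without SETDB1-knockout or control-knockout replicate 3 (edgeR adjusted p = 0.0732 and 0.0792). PARP12 lost its call without SETDB1-knockout replicate 2 or 3 or control-knockout replicate 1 or 2 (edgeR adjusted p from 0.0518 to 0.0721). The elements of the 6 most abundant of the 25 are shown for comparison with BST2, 30 bases (GRCh38.p14) around the first match of each window on the strand that reads GAAA, with matches in capitals.
BST2, chr19:17405741-17405770, minus strand: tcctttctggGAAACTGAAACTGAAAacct
LAP3, chr4:17577005-17577034, minus strand: caactcccggGAAATAGAAActgagtgcca
IFITM3, chr11:320893-320922, minus strand: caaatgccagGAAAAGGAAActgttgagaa
PARP14, chr3:122680800-122680829, plus strand: tccaggaaacGAAAGCGAAAgagtcaaagt
PLSCR1, chr3:146544667-146544696, minus strand: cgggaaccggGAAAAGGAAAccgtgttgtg
OAS3, chr12:112938321-112938350, plus strand: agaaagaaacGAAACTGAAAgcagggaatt
LGALS3BP, chr17:78979962-78979991, minus strand: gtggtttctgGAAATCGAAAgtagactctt

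None of the 6 other genes changed as much as BST2, which was picked for its rise. IFITM3 was higher, at 121 ± 6.65 CPM in SETDB1-knockout cells and 73.8 ± 2.19 CPM in control cells (edgeR adjusted p = 6.92e-10). PARP14, an interferon-induced ADP-ribosyltransferase gene, was lower, at 34.0 ± 1.89 CPM in SETDB1-knockout cells and 50.3 ± 0.987 CPM in control cells (edgeR adjusted p = 4.00e-08). OAS3, which encodes an oligoadenylate synthetase, was lower as well, at 23.7 ± 0.982 CPM in SETDB1-knockout cells and 27.9 ± 1.25 CPM in control cells (edgeR adjusted p = 0.00268). LAP3, PLSCR1 and LGALS3BP were not called, with log2 fold changes of -0.05, -0.10 and 0.18, although LGALS3BP was called higher with library size alone (edgeR adjusted p = 0.0145) and without control-knockout replicate 1 (edgeR adjusted p = 0.00222). Over all tested genes with a window, 29.6% of 446 that held the element were higher and 44.6% lower, beside 32.7% and 36.4% of 10698 without it.

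Other restriction factors, proteins that like tetherin act directly on viruses, moved both ways. Of 20 tested 12 were higher and 5 lower, beside the 31.9% and 31.6% of all genes, with a median log2 fold change of 0.16. APOBEC3G, a cytidine deaminase gene, had 27, 38 and 37 counts in SETDB1-knockout cells and 6, 4 and 12 counts in control cells (log2 fold change 2.17 ± 0.30 SE, edgeR adjusted p = 3.71e-06). GBP5, which interferes with the processing of viral envelopes, was at 0.963 ± 0.243 CPM in SETDB1-knockout cells and 0.337 ± 0.0614 CPM in control cells (edgeR adjusted p = 1.31e-04). TRIM5, which recognises retroviral capsids, was at 16.5 ± 0.962 CPM in SETDB1-knockout cells and 9.58 ± 0.969 CPM in control cells (edgeR adjusted p = 7.69e-08). Among the genes called lower, MARCH8 fell by 0.52 and APOBEC3D by 0.32 (log2), and SERINC5 and HERC5 were called lower too. The APOBEC3 genes resemble each other, so reads can have been shared, and the call of APOBEC3D was lost in DESeq2 (adjusted p = 0.127) and with library size alone (edgeR adjusted p = 0.0709), as was that of HERC5 (DESeq2 adjusted p = 0.104, and edgeR adjusted p = 0.143 with library size alone). The APOBEC3D call was also lost without SETDB1-knockout replicate 2 or 3 or control-knockout replicate 1 or 3, with edgeR adjusted p from 0.0678 to 0.130. The HERC5 call was also lost without SETDB1-knockout replicate 1 or 3 or control-knockout replicate 2 or 3, with edgeR adjusted p from 0.0536 to 0.221.

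Genes whose products work with or on tetherin moved both ways, with 6 (26.1%) higher and 9 (39.1%) lower of 23 tested, beside the 31.9% and 31.6% of all genes, and a median log2 fold change of -0.09. The share called in either direction was about that of all genes. ARHGAP44, which encodes the protein RICH2 that links tetherin to the actin skeleton, had 164, 206 and 198 counts in SETDB1-knockout cells and 13, 19 and 12 counts in control cells. Its groups did not overlap, at 5.74 ± 0.248 CPM in SETDB1-knockout cells and 0.457 ± 0.132 CPM in control cells (log2 fold change 3.65 ± 0.17 SE, edgeR adjusted p = 4.24e-13). PIGT and GPAA1, subunits of the enzyme that attaches GPI anchors, were higher by 0.46 ± 0.06 and 0.33 ± 0.06 on the log2 scale, while PIGK and PIGS, other subunits of it, fell by 0.21 and 0.25. TRAF6 and MAP3K7 (TAK1), which carry the NF-kB signal of tetherin, fell by 0.99 and 0.56 on the log2 scale. TAB1, a signalling gene of the same list, was higher by 0.24 (edgeR adjusted p = 0.00290). MARCH8, a ubiquitin ligase that can send membrane proteins for degradation, fell to 27.4 CPM in SETDB1-knockout cells, against 39.4 CPM in control cells.

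Of 18 long non-coding RNAs listed for a link to immunity, 8 had a row and were tested. Not all of them are known to be induced by interferon or to lie beside immune genes. Of the 8, 5 (62.5%) were higher and 3 (37.5%) lower, beside the 31.9% and 31.6% of all genes. NKILA, an inhibitor of NF-kB signalling, had 34, 24 and 32 counts in SETDB1-knockout cells and 11, 6 and 5 counts in control cells (edgeR adjusted p = 3.22e-05). LUCAT1, a stress- and interferon-induced RNA, was at 2.93 ± 0.503 CPM in SETDB1-knockout cells and 1.02 ± 0.220 CPM in control cells (edgeR adjusted p = 5.36e-07). MIR155HG, the host of a microRNA of immune cells, was at 3.03 ± 1.01 CPM in SETDB1-knockout cells and 1.67 ± 0.219 CPM in control cells (edgeR adjusted p = 8.29e-04). On the log2 scale PSMB8-AS1 fell by 1.22, MALAT1 by 0.59 and MIR22HG by 0.36. The others called higher were NEAT1 and HLA-F-AS1. BISPR, at 4.70, was above all of these, but it was picked for its rise.

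By the root mean square difference of log2(CPM + 0.1) over the 6 libraries, the genes most like BST2 were PDPN, SPANXB1, SMOC2, DPP6 and PRSS21, at 0.28 to 0.39. SPANXB1 has near-identical relatives with which it can share reads. PDPN, at 0.28, had 671, 769 and 719 counts in SETDB1-knockout cells and 0 in each control-knockout library. The genes most like BISPR were SLC8A2, ADGRE1, IL18, FENDRR and AC099654.6, at 0.20 to 0.35. IL18, which encodes a cytokine, had 41, 45 and 53 counts in SETDB1-knockout cells and 1, 0 and 1 counts in control cells. SLC8A2 and ADGRE1 are also on chromosome 19, far from BISPR. With 2 groups, such likeness says little beyond a similar level in each group.

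There were 336 head-to-head pairs of a tested protein-coding and a tested non-coding gene (opposite strands, starts within 1000 bases). Both genes were higher in 69 (20.5%), both lower in 21, and opposite in 25. The protein-coding gene was higher in 29.5% of the pairs and the non-coding gene in 41.4%, beside 31.9% of all genes tested. Whether the 20.5% exceeds what these shares would give was not tested. Both genes were at least 2-fold higher in 13 pairs and at least 10-fold higher in 2. These 2 were BST2 with BISPR, picked for its rise, and FLRT2 with AL049775.1. Of all tested genes, 7.14% were called and at least 2-fold higher, and 1.43% at least 10-fold higher. FLRT2, which encodes an adhesion protein, had 5651 counts in SETDB1-knockout cells and 14 in control cells. AL049775.1 had 111 counts in SETDB1-knockout cells and 0 in control cells, at least 36.4-fold higher with 3 counts over the group as the floor. The next 4 pairs by the smaller rise of the pair were CCDC155 with AC010643.1, ZNF470 with AC005498.3, KPTN with NAPA-AS1 and ZNF594 with AC087500.1. Their ratios were between 2.41 and 5.14. The labels do not say whether strand was kept in sequencing, so reads of overlapping partners can have been mixed.

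**Figure D5:**
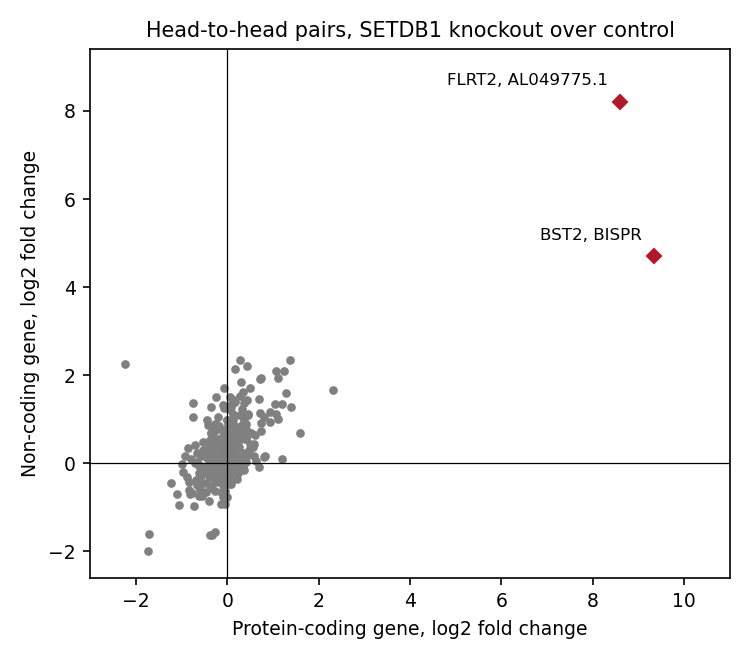
Log2 fold change of the non-coding gene against that of the protein-coding gene (SETDB1 knockout over control) in 336 head-to-head pairs, 1 point a pair. BST2 with BISPR and FLRT2 with AL049775.1 (red) lie apart from the others at the upper right; the value of AL049775.1, with 0 control counts, is a fitted one.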

How the data were processed

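The deposited file is a single table of read counts, not normalized, with genes in rows. FastQC, TopHat2, HTSeq and GRCh38.p7 are named in the submitters' processing notes, with neither tool versions nor settings, and per the labels' protocols a TruSeq RNA kit was used. Every row had a library with at least 11 counts. Groups and replicate numbers came from titles. Replicates differed by more than counting error (2.28 to 9.83 in chi-square per degree of freedom), so none was a copy of another.

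GENCODE 29 named 18595 of 18677 rows; promoter windows are from RefSeq (GRCh38.p14). Tests used R 4.3.3 and edgeR 4.0.16: filterByExpr left 17675 genes, and TMM-scaled counts were fitted with robust quasi-likelihood (glmQLFit, glmQLFTest), with Benjamini-Hochberg adjustment over all genes tested and a threshold of 0.05. The SE is the log2 fold change over the root of its F statistic. It is too small for BST2 and BISPR, whose control totals are a few counts. The common biological coefficient of variation was 4.89%. The steps were tested on simulated counts. Counting intervals cover counting error only, since reads are not independent molecules.

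The members, gene lists and tests were chosen with earlier results of these data known. Named genes were the members, the 4 nearest rows on each side by low coordinate (ABHD8 was added after its values were seen), 8 interferon signalling genes, the 3 largest called rises and falls of each other list, the 5 genes most like each member, and the 6 head-to-head pairs with the largest smaller rise. Some genes that this rule or the marker lists hold are not reported here. Results were recomputed with DESeq2 1.42.0, with its size factors, with library size alone, without a filter, with a replicate block and with each library left out.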

Additional observations from a re-analysis of the deposited data

How the results depend on the processing

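The results recomputed were the levels of BST2 and BISPR in the SETDB1 knockout, their ratio, and the counts of called genes over the table, the flanking genes, the 5 lists and the head-to-head pairs. Control levels and fold changes of the pair were not among them. The ratio rests on knockout counts, so it could move only when a knockout library was left out. Of 198 recomputed values 194 stayed within 1.5 times the count given, or within 1 SD of the level. The exceptions were all of restriction factors called lower, 5 as reported: 3 in DESeq2 and 3 with library size alone, and 3 to 4 with 1 library left out (3 without SETDB1-knockout replicate 3 and 3 without control-knockout replicate 3). In each of these exceptions the lost calls were those of APOBEC3D and HERC5, with edgeR adjusted p of 0.0368 and 0.0488 as reported. With 1 library left out in turn, BST2 stood at 22.3 to 22.9 CPM and BISPR at 1.04 to 1.24 CPM in the SETDB1 knockout, 13 to 14 flanking genes were higher, and 52 to 66 head-to-head pairs had both genes higher.

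Deviations of same-numbered libraries from their group means correlated at 0.393, -0.153 and 0.199 for replicates 1, 2 and 3 over 10452 genes. Those of differently numbered libraries correlated at -0.430 to 0.371. With only 3 libraries per group, these values cannot decide whether the numbers pair the samples. With the replicate number as a block, 5864 genes were higher and 5839 lower, and the calls of LGALS3BP (higher), CLTC and PGAP1 (both lower) were gained. Without a filter on low counts, CMPK2, an interferon-stimulated gene left out above, was higher (edgeR adjusted p = 1.43e-05). Depth limits the control levels of both genes to a few reads, so counting error alone leaves the size of the rise as wide as the intervals given. Those intervals do not cover differences between cultures or guides.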
